A study of Mus musculus with 2 samples.

Results

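The protein-coding mouse genes whose names begin with Nduf encode most of the subunits of mitochondrial complex I (NADH:ubiquinone oxidoreductase) and several of the proteins that assemble it. The annotation used with the deposited tables holds 46 such genes, of 15521 annotated genes with at least 1 read, and every one of the 46 had reads in both libraries. The members were taken by name and gene type alone, and the rows of each gene were summed over its transcript models. By textbook role they comprise 7 core subunits of the matrix arm, 10 accessory subunits of the matrix arm, 19 accessory subunits of the membrane arm, 8 assembly factors, and 2 genes that carry the name but are not complex I subunits, Ndufa4 and Ndufa4l2. Total RNA (2 µg per library) was sequenced as long reads. It came from the gastrocnemius, which lies in the calf, of 25-day-old females of B6CASTF1/J, a hybrid of the laboratory strain C57BL/6J and the wild-derived strain CAST. There is 1 group, untreated as far as the labels say, with 2 libraries called biological replicates 1 and 2. They come from animals numbered 3 and 4, which share a donor record in the labels, so differences between the animals, their dissection and their libraries cannot be told apart. The design has no contrast between conditions, and every comparison between replicate 1 and replicate 2 below compares libraries.

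Complex I passes electrons from NADH to ubiquinone and pumps protons across the inner mitochondrial membrane, and it is the largest complex of the respiratory chain. Its matrix arm takes up NADH at a flavin and conducts electrons along iron-sulphur clusters to the ubiquinone site; its membrane arm holds the proton pumps, which are encoded by the mitochondrial genome and are surrounded by small nuclear-encoded accessory subunits. Oxidative (slow) muscle fibres are rich in the complex, glycolytic (fast) fibres less so, and the gastrocnemius is a mixed muscle dominated by fast fibres.

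The libraries held 1069771 and 1557594 mouse reads in replicates 1 and 2, after 30993 and 31067 spike-in reads were set aside. Levels are given in CPM, a gene's reads scaled to a common total of mouse reads, with exact (Clopper-Pearson) 95% intervals that cover counting error only, and 3 reads correspond to 2.80 and 1.93 CPM in replicates 1 and 2. A long read counts once per sequenced molecule whatever its length, so levels were compared between genes without division by length. How well each library recovered molecules of different length was not measured. The ratio between the libraries followed transcript length, as given below. Markers of fast skeletal muscle summed to 312201 and 216063 CPM in replicates 1 and 2. Of these 6 markers, Atp2a1, which encodes the fast-fibre calcium pump, and Myh4 were higher in replicate 1 and the other 4 were lower, and Atp2a1 alone took 157924 and 56409 CPM. The libraries stood apart in other markers. All 7 slow muscle markers were lower in replicate 1, with sums of 879.6 and 6806 CPM in replicates 1 and 2. All 4 adipocyte markers were higher in replicate 1 (392 and 89.2 CPM), as were all 5 blood markers (1235 and 415 CPM). Of 5 fibroblast and tendon markers, which summed to 3844 and 2041 CPM, Col3a1 was higher in replicate 1, Fmod, Chad and Tnmd were lower (log2 ratios of replicate 1 over replicate 2 from -3.69 to -2.99) and Col1a1 was not called. In bulk tissue fewer cells of a type and less RNA per cell cannot be told apart.

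The Nduf genes made up 1.43% of the mouse reads of replicate 1 (15259 reads, 95% interval 1.40 to 1.45%) and 2.66% of those of replicate 2 (41411 reads, 2.63 to 2.68%), or 2.04 ± 0.871% (mean ± SD, n = 2). The 36 structural subunits alone made up 1.29% and 2.29%. Genes of complexes III and IV and ATP synthase, 43 of them with reads, made up more, with 3.01% and 5.25%. Structural subunits were abundant as a class: the lowest of them by mean CPM, Ndufs5, ranked 817 among all genes with reads, and 94.7% of genes with reads lay below it. At matched transcript length the members also stood high: their median was 368 to 517 CPM across bins of transcript length, against 5.11 to 20.3 CPM for all protein-coding genes with reads in the same bins.

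The core subunits of the matrix arm carry the electron path and are conserved down to bacteria. Their median level was 597 CPM in replicate 1 and 682 CPM in replicate 2 (639.9 ± 60.2, SD, n = 2). With all reads counted, this was the highest of the subunit groups in both libraries. In replicate 2 the order changed when only models with a complete chain of splice junctions were counted. The core median was then 455 CPM of all mouse reads, below 522 CPM for the membrane-arm accessory subunits. Ndufs7, which holds the last iron-sulphur cluster before ubiquinone, had the highest mean of the core group, with 597 CPM (552 to 645) in replicate 1 and 1502 CPM (1441 to 1564) in replicate 2. Ndufv2, an iron-sulphur subunit at the NADH end of the arm, had 641 and 929.6 CPM. Both were lower in replicate 1, and for Ndufs7 the gap exceeded 2-fold. Ndufv1, the subunit that binds the flavin and NADH, had 651 CPM (603 to 701) and 699 CPM (658 to 742) in replicates 1 and 2, with overlapping intervals. Ndufs1, the large subunit that holds several iron-sulphur clusters, ran the other way, with 606 CPM (560.0 to 654) in replicate 1 and 459.7 CPM (427 to 495) in replicate 2. Ndufs3, a core subunit without a cluster, had 395 and 682 CPM. Ndufs8, an iron-sulphur subunit beside the ubiquinone site, was the lowest of the group with 224 and 343 CPM.

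**Figure D1:**
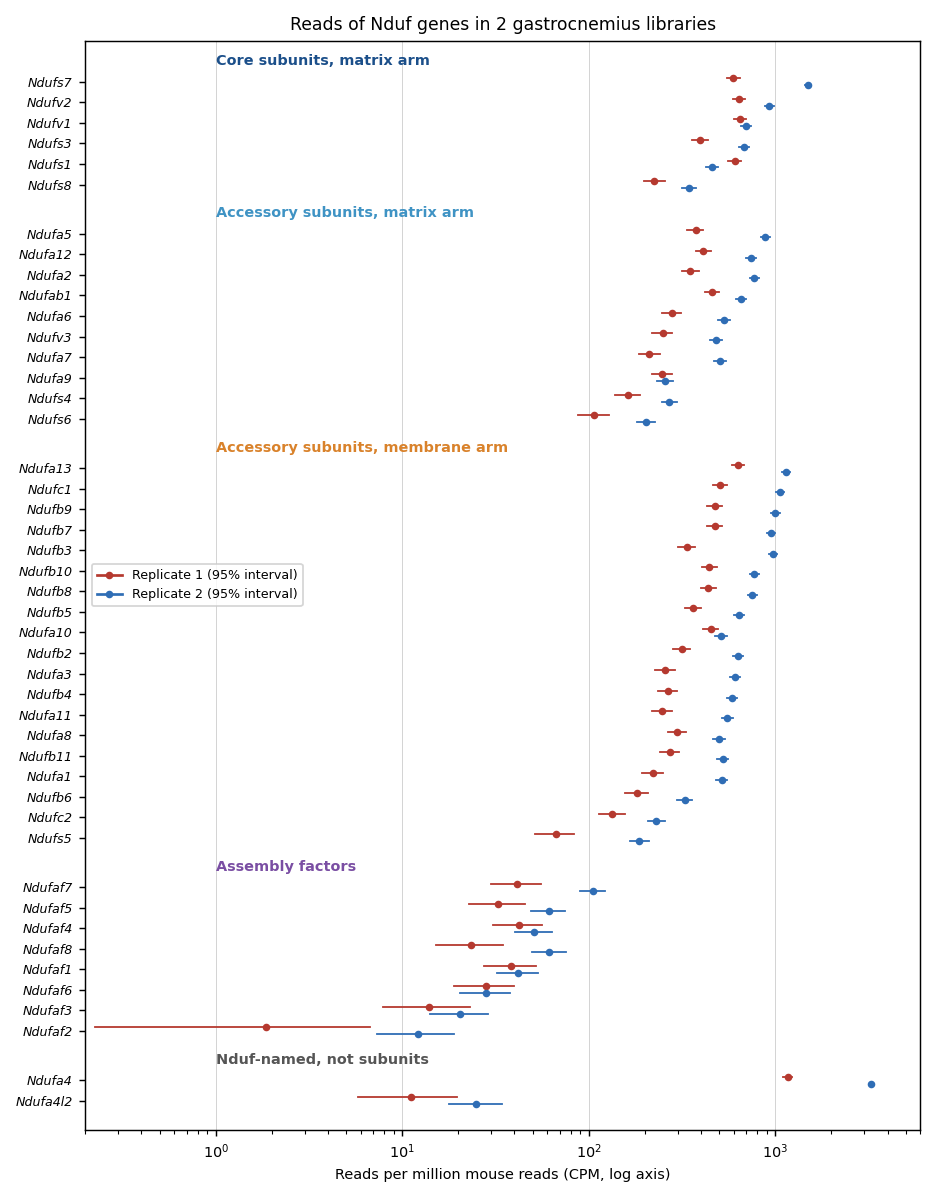
Levels in CPM (log axis) of 45 Nduf genes by role, with replicate 1 in red and replicate 2 in blue; points are libraries and bars are exact 95% intervals of counting error. Structural subunits lie between 66.4 and 1502 CPM, assembly factors between 1.87 and 105 CPM, and most members lie further left in replicate 1.

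The accessory subunits of the matrix arm wrap the core and are needed for its assembly and stability. Their median was 264 CPM in replicate 1 and 519 CPM in replicate 2 (391 ± 181). Ndufa5 had 374 and 886 CPM, Ndufa12 had 412 and 741 CPM, and Ndufa2, which has a thioredoxin-like fold, had 351 and 774 CPM in replicates 1 and 2. These 3 had the highest means of the group, and each was higher in replicate 2. At the low end were Ndufs4, whose loss in mice causes a Leigh-like encephalopathy, with 162 and 271 CPM, and Ndufs6, a zinc-binding subunit, with 107 and 202 CPM. Ndufab1, the mitochondrial acyl carrier protein, which also serves fatty acid synthesis in the organelle, had 459 and 658 CPM. Ndufa9 had 247 and 257 CPM and was the only gene of this group not called between libraries by the test described below.

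The accessory subunits of the membrane arm are small proteins around the proton pumps. Their median was 316 CPM in replicate 1 and 607 CPM in replicate 2 (462 ± 206). Ndufa13, also known as GRIM-19, led with 631 and 1142 CPM in replicates 1 and 2, followed by Ndufc1 with 506 and 1065 CPM and Ndufb9 with 473 and 1003 CPM. Ndufc2 (134 and 229.8 CPM) and Ndufs5 (66.4 and 187 CPM) were the lowest. Ndufs5, a cysteine-rich protein on the intermembrane side, was the lowest structural subunit of all in both libraries. All 19 genes of this group had the lower value in replicate 1.

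The assembly factors act on the growing complex and are absent from the finished enzyme. The median of the 8 Nduf-named factors was 30.4 and 46.2 CPM in replicates 1 and 2 (38.3 ± 11.2). The highest of these 8 in each library lay below the lowest structural subunit of that library. Ndufaf7, a methyltransferase of the matrix, had 41.1 CPM (29.9 to 55.2) in replicate 1 and 105 CPM (89.8 to 123) in replicate 2. Ndufaf5, which hydroxylates an arginine of Ndufs7, had 32.7 and 61.0 CPM, and Ndufaf4, a factor of early assembly, had 42.1 and 50.7 CPM. Ndufaf3, the partner of Ndufaf4, had 14.0 and 20.5 CPM. Ndufaf2, a paralogue of Ndufa12 that acts late in assembly, was the least read member, with 2 and 19 reads or 1.87 and 12.2 CPM, and its value in replicate 1 was below the level of 3 reads. Ndufaf2 thus stood far below its paralogue in both libraries.

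Assembly factors not named Nduf were measured as well. Of 11 such genes chosen from textbook knowledge, 10 were found in the annotation with reads and Coa1 was not in the annotation under that name. The 10 summed to 442 and 544 CPM in replicates 1 and 2. Ecsit, a member of the membrane-arm assembly complex that also contains Ndufaf1, Acad9 and Tmem126b, had 107 and 222 reads, and Tmem70 had 170.1 and 215 CPM. Ndufaf1 itself had 38.3 and 41.7 CPM, beside 36.5 and 34.0 CPM for Acad9 and 47.7 and 39.8 CPM for Tmem126b. None of the last 3 genes was called between libraries by that test.

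The pair of Nduf-named genes that are not subunits lay at opposite ends. Ndufa4, once assigned to complex I and now known as a subunit of cytochrome c oxidase (complex IV), was the most read member, with 1166 CPM (1102 to 1232) in replicate 1 and 3273 CPM (3184 to 3364) in replicate 2. Its paralogue Ndufa4l2, known as a hypoxia-induced gene, had 11.2 and 25.0 CPM. Complex I also has 7 subunits encoded by the mitochondrial genome, and these were sparsely read: mt-Nd1 had 131 and 523 reads, mt-Nd2 had 117 and 459, mt-Nd4 had 97 and 294, and mt-Nd5 had 84 and 220 in replicates 1 and 2. mt-Nd3 had 0 and 6 reads, mt-Nd6 had 1 and 0, and mt-Nd4l had none in either library. Together they came to 402 and 964 CPM, which is 3.12% and 4.21% of the sum over the nuclear structural subunits.

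Ndufb1 is annotated here as Ndufb1-ps (chr12:101968090-101977068, minus strand, GRCm38/mm10), with the gene type of a noncoding RNA from a bidirectional promoter, and so falls outside the rule. It was nonetheless read at a subunit's level, with 195 and 773 reads, or 182 and 496 CPM, in replicates 1 and 2. Of the processed pseudogenes with Nduf names, Ndufa11b, Ndufab1-ps and Ndufs6b had 0 reads in both libraries and Ndufb4c had 0 and 2, so few reads had been assigned to these copies by the submitters' annotation step.

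The subunits of complex I stand in the enzyme in equal number, apart from the acyl carrier protein Ndufab1, which is present in both arms. Their reads were close to each other but not equal. Among the 36 structural subunits the highest level was 9.80 times the lowest in replicate 1 and 8.04 times in replicate 2. The upper quartile was 1.87 and 1.56 times the lower quartile. In replicate 1, 32 of 36 subunits lay within 2-fold of their median of 343 CPM, and in replicate 2, 30 of 36 lay within 2-fold of their median of 597 CPM. The order of the subunits was partly shared by the libraries, with a Spearman correlation of 0.73 across 36 genes (0.87 across all 46), which is a description across genes of 2 libraries. The Spearman coefficient of level with transcript length was 0.48 in replicate 1 and 0.05 in replicate 2 across the 36 subunits, and 0.07 and -0.22 across all 46 members.

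Several of the highest levels rested on reads that did not span the transcript. Counting only models with a complete chain of splice junctions, annotated or not, and leaving out Ndufa13 for the reason given below, the highest level among 35 subunits was 637 CPM for Ndufv1 in replicate 1 and 1056 CPM for Ndufc1 in replicate 2. Ndufs5 remained the lowest, with 66.4 and 178 CPM. Ndufs7 then ranked 18 and 24 in replicates 1 and 2, against 4 and 1 when all reads were counted. Ndufb3, a small membrane-arm subunit, ranked 33 and 31, against 18 and 4. The ratio of highest to lowest was 9.59 and 5.92, and the upper quartile was 2.02 and 1.55 times the lower quartile.

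The libraries were compared gene by gene with Fisher's exact test (two-sided) of a gene's reads against all other mouse reads, over all 8892 annotated genes with 10 or more reads in total, with Benjamini-Hochberg adjustment over all of them and a threshold of 0.05. The ratios below are log2 of CPM in replicate 1 over CPM in replicate 2, with 0.5 reads added. Of the 46 members 37 differed, against 26.0% of all genes tested. Of these, 36 were lower in replicate 1, against 11.1% of all genes, and 1 was higher, against 14.9%. The members' median log2 ratio was -0.90, and that of all genes tested was 0.18. With an allowance for variation between animals (edgeR's exact test with the dispersion fixed at 0.04) only 2 members were called, against 2.25% of all genes tested. Both were lower in replicate 1 by that test: Ndufa4 (adjusted p = 0.026) and Ndufb3 (adjusted p = 0.022). Counting complete chains only, Ndufa4 had 610.4 and 1282 CPM and Ndufb3 112 and 238 CPM in replicates 1 and 2. These gaps were smaller than with all reads (2.81- and 2.92-fold). The test on reads compares these libraries and has no replicate check.

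By role, 4 core subunits were lower in replicate 1, 1 was higher and 2 were not called. Of the accessory subunits, 9 of 10 in the matrix arm and 18 of 19 in the membrane arm were lower in replicate 1 and none was higher. Of the assembly factors, 4 of 8 were lower and 4 were not called. The most negative ratio belonged to Ndufaf2 (log2 ratio -2.42, 95% interval -5.85 to -0.65, from 2 and 19 reads). Next came Ndufb3 at -1.54 (-1.72 to -1.38), Ndufa4 at -1.49 (-1.58 to -1.40), Ndufs5 at -1.49 (-1.89 to -1.11) and Ndufaf8, the partner of Ndufaf5, at -1.38 (-2.10 to -0.75). At the other end, Ndufs1 was higher in replicate 1 (0.40, 0.24 to 0.55, adjusted p = 6e-06 by Fisher's exact test with Benjamini-Hochberg adjustment). Ndufaf6 (0.00), Ndufa9 (-0.06) and Ndufv1 (-0.10) were not called.

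**Figure D2:**
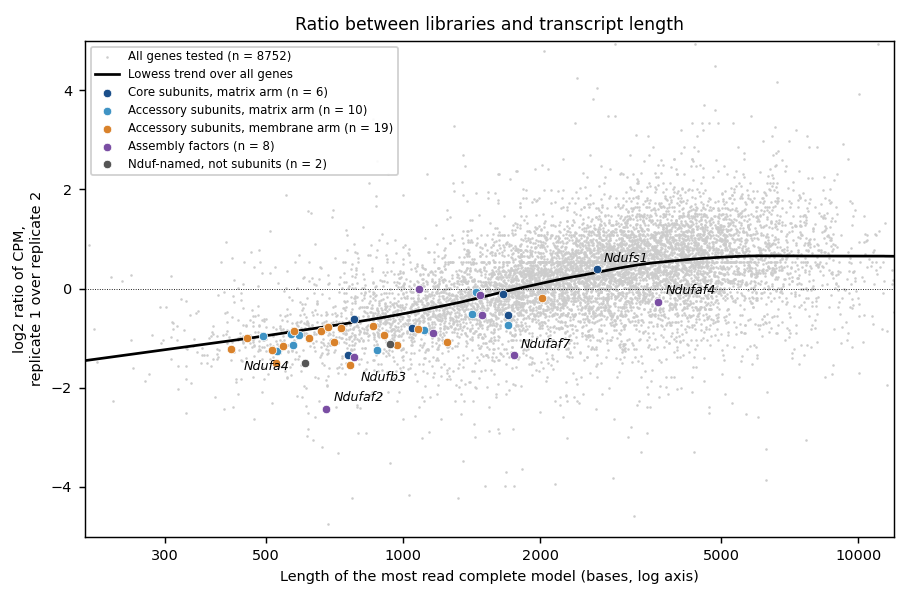
Log2 ratio of CPM in replicate 1 over replicate 2 against the length in bases (log axis) of each gene's most read complete model, for 8752 genes (grey) and 45 Nduf genes (coloured by role); the black line is the lowess trend over all genes. Most Nduf genes are short and lie below 0, where the trend lies too, and Ndufs1 is the longest core subunit and the highest member.

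The ratio followed transcript length. Spearman's coefficient between log2 ratio and length of the most read complete model was 0.61 across the 46 members, and it was 0.50 across 8752 genes with a length, both as descriptions across genes of 1 pair of libraries. With the lowess trend over all genes removed, 21 members were called (all genes 13.1%), of which 21 were lower in replicate 1 (all genes 7.50%) and 0 were higher (all genes 5.56%). The members' median ratio was then -0.30. Ndufs1 was no longer called (0.07, adjusted p = 0.70 by an exact binomial test against the trend with Benjamini-Hochberg adjustment). The ratios of Ndufa13, Ndufb2, Ndufv3 and Ndufs8 turned to 0.01, 0.00, 0.01 and 0.07, none of them called. Ndufs7 (-0.63), Ndufb3 (-0.85), Ndufa4 (-0.66), Ndufc1 (-0.74) and Ndufaf7 (-1.33) were still called. The longer Ndufa10 (2020 bases), a membrane-arm subunit related to nucleoside kinases, and Ndufaf4 (3632 bases) were not called by Fisher's test but were called lower in replicate 1 against the trend, at -0.29 and -0.79. The length of a model is not the length of its reads, and which property of the libraries moves with length was not tested.

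Other mitochondrial lists moved as well. Of 40 genes of complexes III and IV and ATP synthase tested, 33 were lower in replicate 1 and 1 was higher, with a median log2 ratio of -0.98 (19 lower and -0.15 with the trend removed). Of 78 mitochondrial ribosomal protein genes, 36 were lower and none was higher (median -0.55). With the trend removed, 23 of them were lower and 1 was higher (median -0.24). Over all genes tested, 11.1% were lower, and 7.50% with the trend removed. The mitochondrially encoded subunits mt-Nd1, mt-Nd2, mt-Nd4 and mt-Nd5 were all lower in replicate 1, with log2 ratios from -1.45 to -0.84. Ndufb1-ps was lower as well, at -1.44. Of the assembly factors not named Nduf, Ecsit (-0.51, adjusted p = 0.013) and Tmem70 (-0.34, adjusted p = 0.043) were lower by Fisher's exact test with Benjamini-Hochberg adjustment, 7 were not called and Timmdc1 had too few reads to be tested. The slow muscle markers and the tendon markers Fmod, Chad and Tnmd moved the same way and the adipocyte and blood markers the opposite way, as given above, and their part in the Nduf difference was not tested.

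The deposited tables give each model a class: known (an annotated chain of splice junctions), NIC (annotated splice sites in a new combination), NNC (at least 1 splice site outside the annotation), ISM (an annotated chain of which an end is missing) and genomic (the remaining class for reads within a gene). Known chains took 82.9% of Nduf reads in replicate 1 (95% interval 82.3 to 83.5%) and 76.2% in replicate 2 (75.8 to 76.7%), beside 65.3% and 71.0% over all annotated genes. Incomplete chains took 14.2% and 21.5%, beside 8.51% and 12.3% over all genes. NIC chains took 1.28% and 0.705%, NNC chains 1.49% and 1.06%, and genomic reads 0.144% and 0.490%. All 3 of these shares were lower for Nduf genes than over all annotated genes in both libraries: over all genes NIC chains took 5.23% and 8.65%, NNC chains 18.8% and 2.60%, and genomic reads 2.21% and 5.50%. The pattern was shared by the genes of complexes III and IV and ATP synthase. There known chains took 86.9% and 80.6% and incomplete chains 11.7% and 17.7% in replicates 1 and 2. Their NIC chains took 0.277% and 0.214%, NNC chains 0.805% in each library, and genomic reads 0.292% and 0.655%. Mitochondrial ribosomal protein genes shared the pattern only in part. Known chains took 87.2% and 76.2% there, but incomplete chains only 2.58% and 3.84%. In replicate 2 their NNC chains (7.13%) and genomic reads (11.4%) exceeded the shares over all genes.

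**Figure D3:**
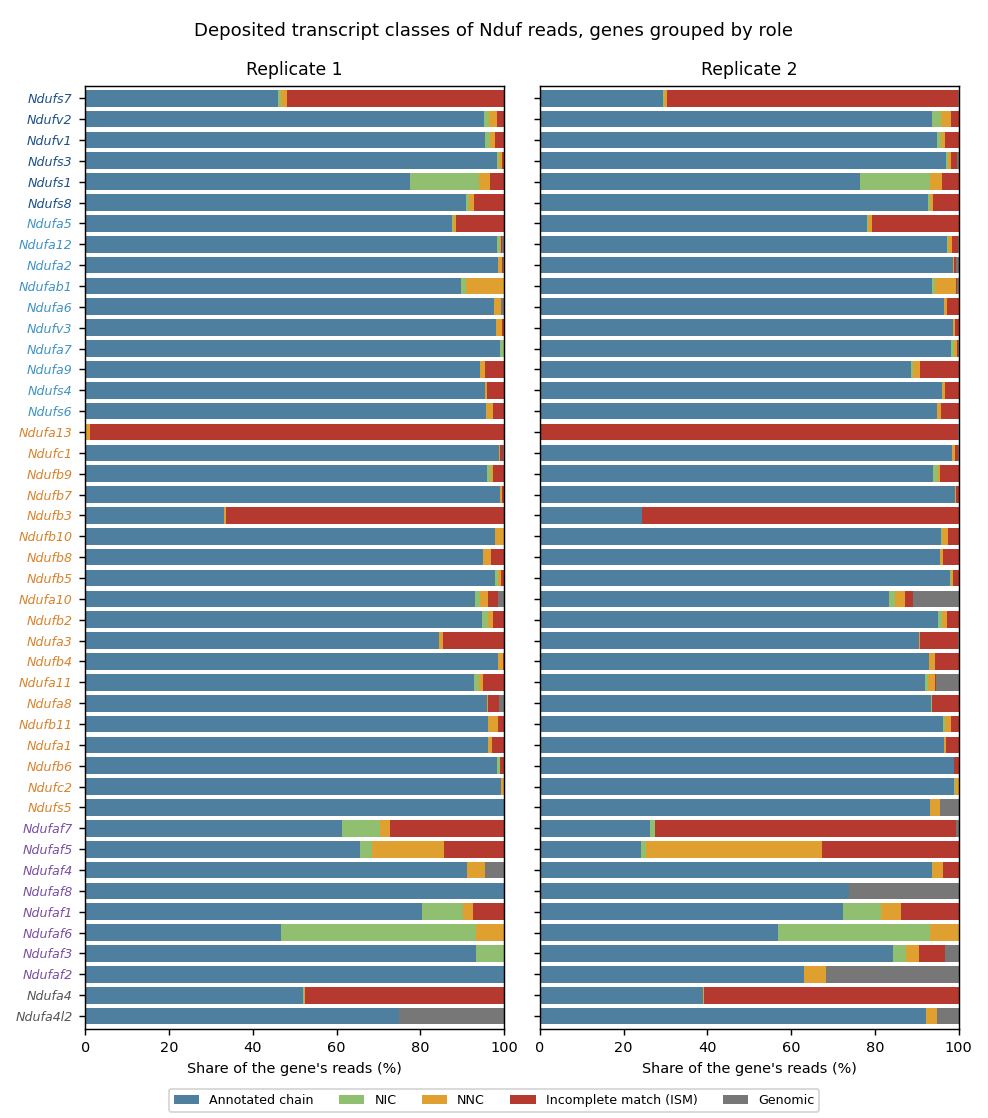
Share of each of 45 Nduf genes' reads (%) by deposited transcript class, with replicate 1 on the left and replicate 2 on the right and gene names coloured by role. Incomplete chains (red) fill Ndufa13 and take much of Ndufs7, Ndufb3, Ndufa4 and, in replicate 2, Ndufaf7, while most other genes are nearly all known chains.

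The incomplete reads were concentrated in a few genes, and in each of these in a recurring model. For Ndufs7 a 2-exon model at the 3' end took 49.5% of reads in replicate 1 (45.5 to 53.4%) and 67.5% in replicate 2 (65.5 to 69.4%), and it covers 187 of 675 coding bases (27.7%). For Ndufa4 a 2-exon model took 46.8% and 60.5% and covers 118 of 249 coding bases (47.4%). For Ndufb3 a model of the last exon alone took 66.2% and 75.4% and covers 157 of 315 coding bases (49.8%). None of these 3 models holds the annotated start codon. Among the assembly factors, a 1-exon model of Ndufaf7 took 25.0% of 44 reads in replicate 1 (13.2 to 40.3%) and 71.3% of 164 reads in replicate 2 (63.8 to 78.1%), so the intervals did not overlap. Its complete chains had 32 and 45 reads, or 29.9 and 28.9 CPM of all mouse reads, in replicates 1 and 2. Set against the complete-chain reads of all genes, in place of all mouse reads, Ndufaf7 was not called (log2 ratio -0.10, adjusted p = 0.92 by Fisher's exact test with Benjamini-Hochberg adjustment). Ndufaf2 was not called either under that count (-2.04, adjusted p = 0.066).

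The share of reads that hold each splice junction shows where these reads begin. In Ndufs7 the junctions 1 to 6, counted from the 5' end, were each held by at most 50.2% of reads in replicate 1 and at most 31.6% in replicate 2, and the last junction by 98.7% and 98.8%. In Ndufa4 the first 2 junctions were held by 51.6 and 52.2% of reads in replicate 1 and by 38.7 and 39.2% in replicate 2, and the last junction by 99.0% and 99.5%. In Ndufb3 both junctions were held by few reads, 33.2 and 33.8% in replicate 1 and 24.3 and 24.6% in replicate 2. The step is therefore abrupt at a single exon in each of the 3 genes, and not a gradual loss toward the 5' end. Ndufs3, by contrast, kept every junction in 99.1 to 99.8% of reads in replicate 1 and 98.2 to 98.9% in replicate 2. For Ndufa13 the junctions counted were those of its incomplete 4-exon model, which lacks the annotated first exon. That model took 97.3% and 98.4% of its reads, so few reads can hold its annotated first junction. Over the 46 members, counted this way, the median share of reads with the first junction was 95.8% and 93.6%, and 30 members reached 90% in both libraries. Only 2 members, Ndufs7 and Ndufb3, were under 50% in both by this count. In 33 of 46 members the share was the lower in replicate 2.

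**Figure D4:**
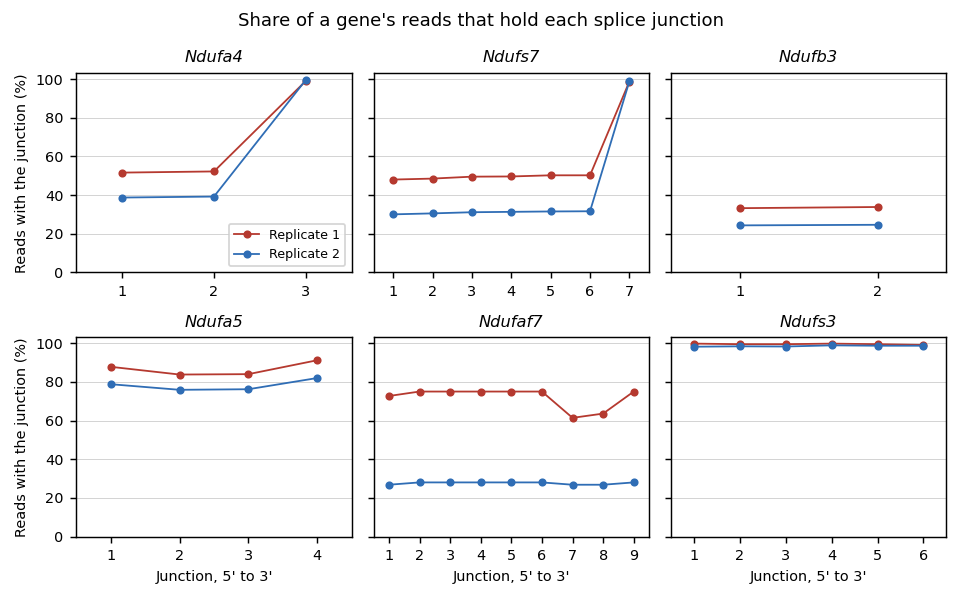
Share of a gene's reads (%) that hold each splice junction of the leading annotated chain, numbered from the 5' end, for 6 Nduf genes with replicate 1 in red and replicate 2 in blue. Ndufa4 and Ndufs7 step up to 99.0 and 98.7% in replicate 1 at the last junction, Ndufb3 stays below 34%, and Ndufs3 is flat near the top.

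Ndufa13 is a different case. Its incomplete 4-exon model took 97.3% of reads in replicate 1 (95.8 to 98.4%) and 98.4% in replicate 2 (97.7 to 99.0%). It lacks only the annotated first exon, which lies upstream of the start codon, and it holds the start codon and all 435 coding bases of Ndufa13-201. These reads are classed as incomplete for want of that exon alone, and the gene was left out of the ranking by complete chains for that reason. Its complete chains had only 7 and 4 reads in replicates 1 and 2, and set against the complete-chain reads of all genes their log2 ratio was 1.13, which was not called (adjusted p = 0.41, Fisher's exact test with Benjamini-Hochberg adjustment). The start codon lies at chr8:69901633-69901635 (minus strand, GRCm38/mm10), and the RNA-sense reference sequence from it is shown with the start codon in capitals, as the first coding bases that nearly every Ndufa13 read model contained.
Ndufa13: ATGgcggcgtcgaaggtgaagcaggacatg

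In most Nduf genes 1 chain took most of the complete-chain reads. With 5 or more reads required, the members had 124 complete chains, with a median of 2.5 and at most 6 per gene; 16 members had a single chain. The most read chain of the gene was annotated in 45 of 46 members, the exception being Ndufa13, and in 35 members it took at least 90% of complete-chain reads in both libraries. Among the 41 members with 20 or more complete-chain reads in each library and at least 2 chains, the median share of the leading chain was 96.1% and 95.9% in replicates 1 and 2, beside 89.8% and 89.4% over the 3273 genes tested alike. That comparison was not matched for length. The median length was 821 bases for the Nduf genes and 2616 bases over all 8752 genes with a length in the gene test. The leading share differed between libraries in 0 of 41 members by Fisher's exact test with Benjamini-Hochberg adjustment, against 0.733% of genes (0.275% with the share lower in replicate 1 and 0.458% with it higher). At an unadjusted p under 0.05 there were 3 of 41, against 194 of 3273 over all genes tested alike, namely Ndufab1 and Ndufa3 (adjusted p = 0.055 each, Fisher's exact test) and Ndufaf5 (adjusted p = 0.22). The numbers of reads limit this: for Ndufaf5 the leading chain had 23 of 34 reads in replicate 1 and 23 of 64 in replicate 2.

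Chains other than the leading one numbered 78 in 30 members and held 6.58% and 5.04% of complete-chain reads in replicates 1 and 2. Most of those reads came from chains that leave the coding sequence as it is: 16 chains in 8 members differed outside the coding span and held 4.41% and 3.03% of reads, whereas 62 chains in 27 members differed within it and held 2.17% and 2.00%. Within the stretch shared with the leading chain, 23 of these 62 chains changed the number of coding bases by a multiple of 3 and 39 did not. Coding exons beyond the end of a shorter model were not counted, so this does not give the change in the whole coding length. By annotation, 49 of the 78 chains were outside it, 13 were protein coding, 9 retained introns, 4 were assigned to nonsense-mediated decay and 3 were processed transcripts.

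The most evenly divided subunit was Ndufb2, a membrane-arm subunit (chr6:39592574-39603382, plus strand). Its chain Ndufb2-202 took 48.6% of complete-chain reads in replicate 1 (43.1 to 54.2%) and 50.5% in replicate 2 (47.3 to 53.7%), and Ndufb2-205 took 47.1% (41.6 to 52.7%) and 47.0% (43.8 to 50.2%). The chains differ by 4 bases at the end of exon 3 (chr6:39598362-39598365), where a pair of splice donors stand in tandem, and these bases come 21 bases after the stop codon, so both forms have the same 318 coding bases. The spliced sequences across the junction are given below with the 4 extra bases in capitals, since the splice junctions differ by nothing else. The outer ends of the models also differ (chr6:39592583-39599471 for Ndufb2-202 and chr6:39592574-39603382 for Ndufb2-205) and were not compared.
Ndufb2-202: ctctctggacgaGTAGgagcaaggtgag
Ndufb2-205: ctctctggacgagagcaaggtgag

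Ndufb1-ps shows a comparable choice at an acceptor. Its chain Ndufb1-ps-203 took 78.5% of complete-chain reads in replicate 1 (72.0 to 84.1%) and 80.3% in replicate 2 (77.3 to 83.1%), and Ndufb1-ps-201, which starts the exon 3 bases later, took 20.9% and 19.3%. The 3 bases (chr12:101969635-101969637, minus strand) are in capitals, and the flanking bases are the same in both.
Ndufb1-ps-203: accaggctgaagCAGtcaagatgacct
Ndufb1-ps-201: accaggctgaagtcaagatgacct

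Ndufs1 had several splice choices before its coding span (chr1:63143596-63176833, minus strand). Ndufs1-201 took 52.4% of complete-chain reads in replicate 1 and 51.9% in replicate 2. Ndufs1-203, whose first exon extends 158 bases further at its 3' end (chr1:63176428-63176585), took 27.8% and 27.0%. An unannotated combination with a 104-base exon between the first and the next exon (chr1:63172154-63172257) took 9.11% and 7.85% (57 and 54 reads). A chain with both changes, which add 262 bases, took 5.43% and 6.40% (34 and 44 reads). All of this lies before the coding span, and the shares were close in the libraries. Among these 4 chains the 104-base exon was present in 15.3% of reads in each library. The long first exon was used in 37.4% of reads with the extra exon in replicate 1 (27.4 to 48.1%) and 34.7% of reads without it (30.5 to 39.0%), and in replicate 2 in 44.9% (34.8 to 55.3%) and 34.3% (30.3 to 38.4%), so the intervals overlapped.

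Other choices outside the coding span were seen in Ndufs8, Ndufab1 and Ndufaf1. In Ndufs8 the leading Ndufs8-205 took 74.4% and 80.3% of complete-chain reads in replicates 1 and 2. Ndufs8-201, with 243 further bases near the 5' end (chr19:3912467-3912709), took 19.7% and 15.5%, and Ndufs8-203, with 240 of those bases, took 3.59% and 2.79%. In Ndufab1 the leading Ndufab1-203 took 81.7% and 88.5%. A chain outside the annotation that begins its last exon 104 bases further upstream (chr7:122090964-122091067) took 7.54% and 4.71% (37 and 48 reads), and Ndufab1-201, which ends in another last exon, took 7.13% and 4.80%. In Ndufaf1, the leading Ndufaf1-202 took 63.2% and 48.2%, and Ndufaf1-203, which lacks 171 bases near the 5' end (chr2:119662609-119662779), took 23.7% and 35.7%, from 38 and 56 reads with wide overlapping intervals.

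**Figure D5:**
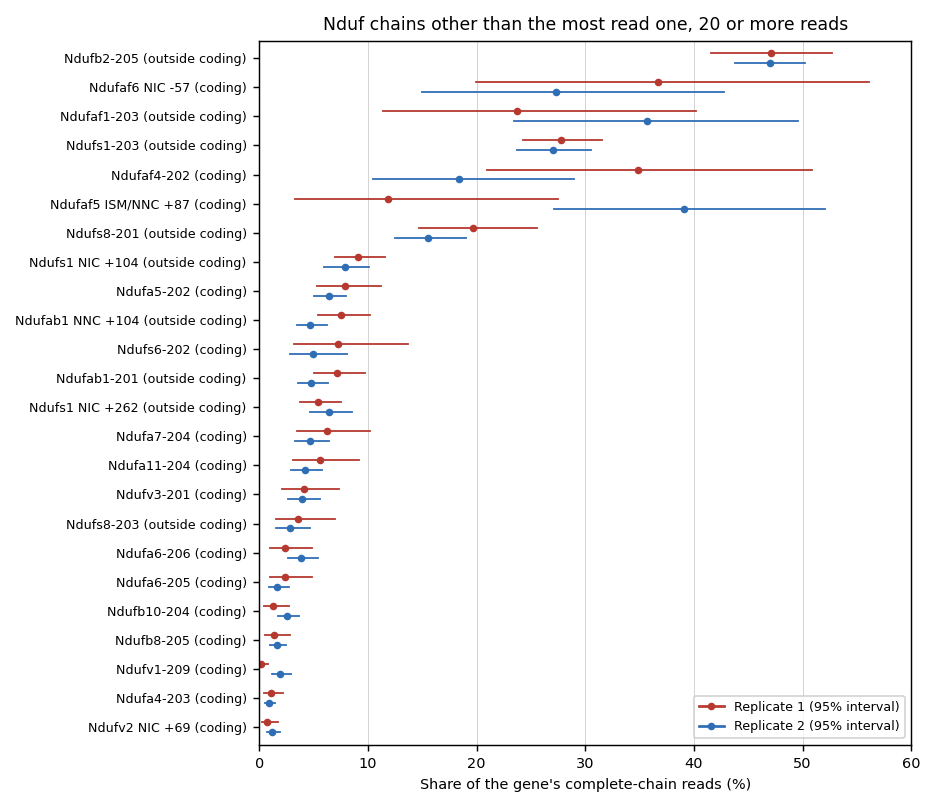
Share of a gene's complete-chain reads (%) in each of 24 Nduf chains other than the leading one that had 20 or more reads over both libraries, with replicate 1 in red, replicate 2 in blue and exact 95% intervals; signed numbers are bases gained or lost, and brackets say whether the change lies in the coding span. Bases were counted only within the stretch shared with the leading chain. The largest shares belong to Ndufb2-205 at 47.1 and 47.0%, and intervals of the libraries overlap for most chains.

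Among the chains that differ within the coding span, Ndufa5-202 skips a 117-base exon of Ndufa5 (chr6:24522659-24522775, minus strand), which encodes 39 codons, and took 7.91% of complete-chain reads in replicate 1 (5.32 to 11.2%) and 6.40% in replicate 2 (5.02 to 8.02%), from 28 and 70 reads. Skipping the exon leaves 234 of 351 coding bases and keeps the frame. The exon is printed in capitals between 12 flanking bases on each side, with the skipped junction beneath it.
Ndufa5-201: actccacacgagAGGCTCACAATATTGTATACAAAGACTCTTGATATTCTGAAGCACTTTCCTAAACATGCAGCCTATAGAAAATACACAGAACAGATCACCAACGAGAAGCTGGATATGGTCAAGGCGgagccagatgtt
Ndufa5-202: actccacacgaggagccagatgtt

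In Ndufaf6, an assembly factor related to phytoene synthases, the leading annotated chain had 13 of 30 complete-chain reads in replicate 1 and 22 of 44 in replicate 2. A chain outside the annotation that skips a 57-base exon of 19 codons (chr4:11066651-11066707, minus strand) took 36.7% (19.9 to 56.1%) and 27.3% (15.0 to 42.8%), from 11 and 12 reads. The exon is shown in capitals, since this is the most read skip of a coding exon outside the annotation.
Ndufaf6-201: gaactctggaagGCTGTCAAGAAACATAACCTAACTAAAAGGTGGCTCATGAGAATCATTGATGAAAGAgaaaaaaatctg

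Ndufv3, a subunit at the NADH end of the matrix arm, has a known long form. Ndufv3-201, which includes an exon of 1092 bases (364 codons) and has 1407 coding bases in place of 315, took 4.15% and 3.91% of complete-chain reads in replicates 1 and 2, from 11 and 29 reads. In Ndufv2 a chain outside the annotation with a 69-base exon in the coding span (chr17:66092658-66092726, minus strand) took 0.742% and 1.20% (5 and 17 reads). In Ndufaf5 a 3-exon model of the 3' end with 87 bases outside the leading chain (chr2:140202950-140203036) took 11.8% (3.30 to 27.5%) and 39.1% (27.1 to 52.1%), from 4 and 25 reads, and its class was ISM or NNC depending on the library. In Ndufaf4 the processed transcript Ndufaf4-202 took 34.9% and 18.4%, from 15 and 14 reads. Chains assigned to nonsense-mediated decay were few: Ndufs6-202 took 7.21% and 4.97%, Ndufb8-205 took 1.32% and 1.59%, Ndufa3-204 took 3.81% and 1.05%, and Ndufa7-202 took 1.77% and 1.02%. The retained-intron chain Ndufa7-204 took 6.19% and 4.70%.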

How the data were processed

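The deposited tables give, for each library, whole-number read counts per transcript model with no normalization by the authors, per the file headers and the values. The notes deposited with them name mm10 and GENCODE M21, and the gene models name TALON. Platform, aligner, versions and read filters were not given in the sources used here. Gene and exon coordinates follow GENCODE M21 on GRCm38 (mm10), and the printed sequences were read from the reference transcript sequences of GENCODE M21, not from the reads.

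Counts were summed per gene, and a model was taken as shared by the libraries where chromosome, strand and all introns were the same. CPM used all mouse reads without ERCC spike-ins. Values are per library, with means ± SD (n = 2) and exact 95% intervals. Tests were Fisher's exact tests with Benjamini-Hochberg adjustment over all genes tested. Alternatives used TMM (edgeR 4.0.16), DESeq2 1.42.0 size factors, edgeR's exact test, other minimums, classes and thresholds, and removal of a lowess length trend (fraction 0.4). Steps ran in R 4.3.3 and in Python 3.11.15 with scipy 1.17.1, numpy 2.4.6, pandas 2.3.3, matplotlib 3.10.9 and statsmodels 0.14.6, and the tests were tried on simulated data first.

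The members, lists, roles and tests were chosen with earlier results of these data known. Named were, per role, the 3 highest and 2 lowest genes by mean CPM, the 5 largest ratios each way, the 8 members with 50 or more complete-chain reads that had the lowest leading share, and the 6 most read chains outside the annotation. Other members were named after their values were seen. Strain alleles were not separated. Intervals cover counting error only, and p-values measure the difference between these libraries. Values of 1 member are not reported here by gene; it is counted in the group values and left out of the figures.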

Additional observations from a re-analysis of the deposited data

How the results depend on the processing

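Of the 46 Nduf genes 37 were called between libraries, 36 lower and 1 higher in replicate 1. The count was 21, with 21 lower and 0 higher, once the length trend was removed, and 2, with 2 lower and 0 higher, by edgeR's exact test with the dispersion set to 0.04, where 2.25% of all genes were called. The higher count became 2 with annotated models only and 2 with Atp2a1 left out. TMM and DESeq2 factors gave 40 calls each and moved the median of all genes from 0.18 to 0.00, and that of the members to -1.09 and -1.08. Of the called ratios, those that changed sign were Ndufa13 (1.13 with complete chains; 0.01 with the trend removed), Ndufaf5 (0.63 with annotated models), Ndufb2 (0.00), Ndufv3 (0.01) and Ndufs8 (0.07), the last 3 with the trend removed; none was called there. Ratios that were not called also changed sign, such as Ndufa9 (0.14) and Ndufaf1 (0.06) with the trend removed, where Ndufaf6 was at 0.44. With complete chains alone, set against the complete-chain reads of all genes, the core median was 571 CPM as a mean of the libraries. The known share was then 97.3%, which follows from leaving out the other classes. Chains with 2 or more reads numbered 222. Leading shares differed in 0 members by Fisher's exact test under each of the 3 alternatives run, with 4, 3 and 3 at an unadjusted p under 0.05. Without replicate 1 or replicate 2 the summed share was 2.66 or 1.43%, and the medians by role lay from 597 to 682 CPM (core), 264 to 519 (matrix arm), 316 to 607 (membrane arm), 30.4 to 46.2 (assembly) and 588 to 1649 (not subunits). The class shares lay from 76.2 to 82.9% (known), 14.2 to 21.5% (incomplete), 0.705 to 1.28% (NIC), 1.06 to 1.49% (NNC) and 0.144 to 0.490% (genomic). The causes of these changes were not tested. No paired analysis was possible because there is 1 group with no contrast, and leaving out a library leaves no test between libraries. Low read numbers limit the assembly factors most, Ndufaf2 above all.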
